A study of Mus musculus with 23 samples.

Results

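The effect of a single mutant Grin2b allele on brain mRNA in mice that received no foot-shock was examined in 12 samples, 6 of heterozygous mice (HT control) and 6 of wild-type mice (WT control), chosen by their titles from 23 samples in all. HT control and WT control samples came from brain of male C57BL/6J mice, and HT mice carry the Grin2b allele named C456Y in the series title. The genotype is called heterotype in the sample labels and heterozygous in the series text. The other 11 samples were 6 HT shock and 5 WT shock samples of the same 2 genotypes that received foot-shock, a brief electric stimulus used in fear conditioning, and they are used here as a second genotype comparison that shares no sample with the first. The labels name no brain region and give postnatal day 17, while the series text speaks of adult mice, so the age is unresolved. They do not say that each sample came from a separate animal, and p-values therefore measure the spread between these samples, which may be technical.

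Grin2b encodes GluN2B, a subunit of the NMDA receptor. This receptor is a glutamate-gated channel that assembles from GluN1 and GluN2 or GluN3 subunits, admits calcium when glutamate binds a depolarised synapse, and takes part in synaptic plasticity. GluN2B is most prominent early in forebrain development, and human GRIN2B variants are a known cause of neurodevelopmental disorders that include autism. The allele name denotes a cysteine replaced by tyrosine in the protein. The deposited values are levels per gene and do not show which allele a transcript came from.

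Each value was a normalized count, a read count per gene that the authors scaled to make samples comparable. The 12 control samples had totals of 30.98 M to 32.08 M normalized counts in HT control and 31.87 M to 32.51 M in WT control (M, mega). These totals reflect the scaling, and the sequencing depth is unknown. HT control replicate 6 stood apart from the other controls. On the first principal component of the 12 controls (15.7% of the variance) it lay at 43.7, whereas the other HT control samples lay between -10.9 and 15.5. Its log2 deviations from the mean of the 12 controls also ran with transcript length, with a Spearman's rho across 17106 genes of -0.41 for length and 0.43 for GC content, and its weight, estimated from how well it matched the model, was 0.24. The other 5 HT control samples had rho for length between -0.29 and 0.27, and the WT control samples between -0.18 and 0.25. In the shocked pair rho for length also differed by genotype, at -0.34 to -0.10 in HT shock and -0.10 to 0.18 in WT shock. For GC content it was 0.11 to 0.33 in HT shock and -0.14 to 0.14 in WT shock. Values of the shocked pair below are uncorrected unless stated. Results are therefore also given without HT control replicate 6 and after a correction of each sample for the length and GC content of transcripts (the length and GC correction), which was added after seeing the data.

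**Figure D1:**
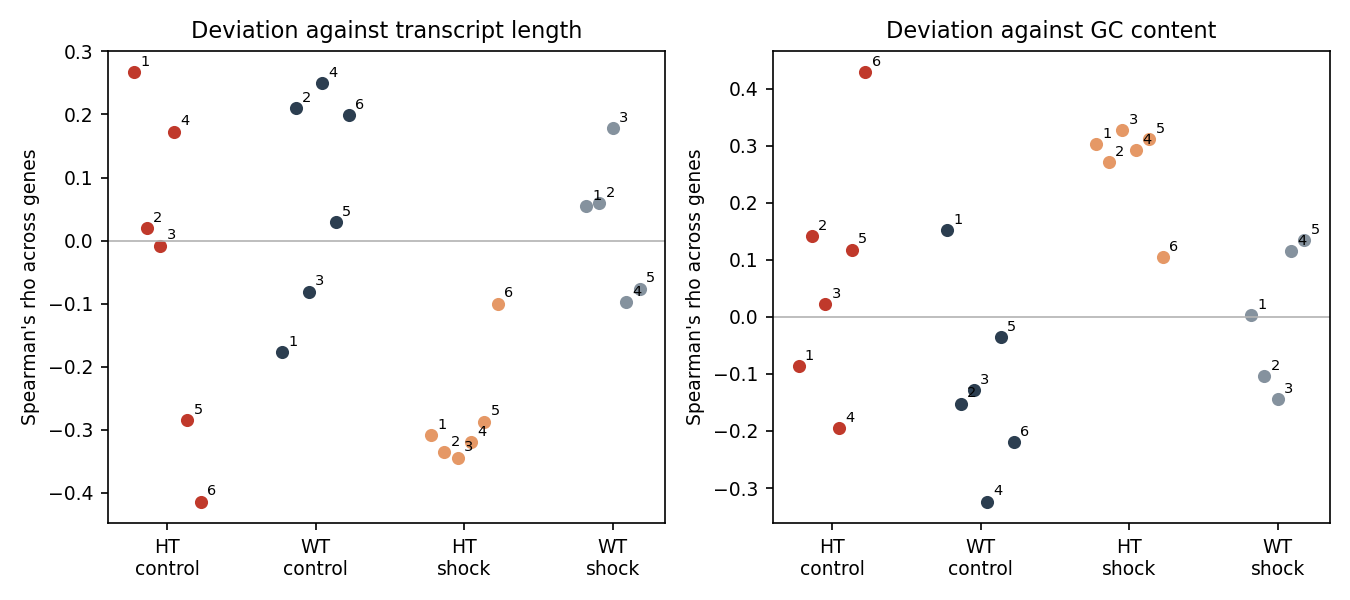
Spearman's rho across genes between each sample's log2 deviation from the mean of the 12 control samples and the length (left) or GC content (right) of the gene's longest transcript, 1 point per sample with its replicate number. HT control replicate 6 lies at -0.41 for length and 0.43 for GC content, in the direction of the HT shock samples, and the other control samples spread on both sides of 0.

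The first question was how many genes differed between the genotypes without shock. Of 17118 genes with a mean of at least 10 normalized counts, 0 (0%) passed an adjusted p under 0.05 in HT control against WT control (limma on log2(normalized count + 1) with Benjamini-Hochberg adjustment over all genes). The smallest adjusted p was 0.0861, shared by 5 genes. At an unadjusted p under 0.05 there were 849 genes with higher values in HT control (4.96%) and 1046 with lower values (6.11%). Both directions together held 1895 genes, against 856 for 5% of those tested. Without HT control replicate 6 there were 517 higher and 538 lower genes, 1055 in all. The typical difference was small: the median absolute log2 difference over all genes was 0.07. The 6 HT control values lay wholly above the 6 WT control values for 32 genes (0.187%) and wholly below them for 40 genes (0.234%).

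The same genotypes were compared after shock. In HT shock against WT shock 676 genes (3.95%) rose and 913 (5.33%) fell at an adjusted p under 0.05, and the median absolute log2 difference over all genes was 0.11. That total of 1589 was 2923 without HT control replicate 6, which enters through the shared estimate of the spread, 3775 with sample weights and 1020 after the length and GC correction. A larger number of calls after shock does not show that the genotype difference depends on shock, and the interaction of genotype and shock was tested directly. It passed for 0 genes by limma, with 1101 genes at an unadjusted p under 0.05 and a smallest adjusted p of 0.552. The signs of the comparisons were then set side by side. Pearson's r across all genes, which are not independent replicates, was 0.29, and 0.16 without HT control replicate 6. Of all genes 69.2% had the same sign in both, and of the 1895 genes at an unadjusted p under 0.05 without shock 86.2% (1634) had the same sign after shock. Of these genes 484 were called after shock with the same sign and 4 with the opposite sign. After the length and GC correction 63.0% of all genes and 79.9% of 1605 genes at an unadjusted p under 0.05 shared the sign. Without HT control replicate 6 the shares were 61.6% and 76.7% of 1055 genes, and of the 2923 genes then called after shock 628 had the opposite sign without shock.

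**Figure D2:**
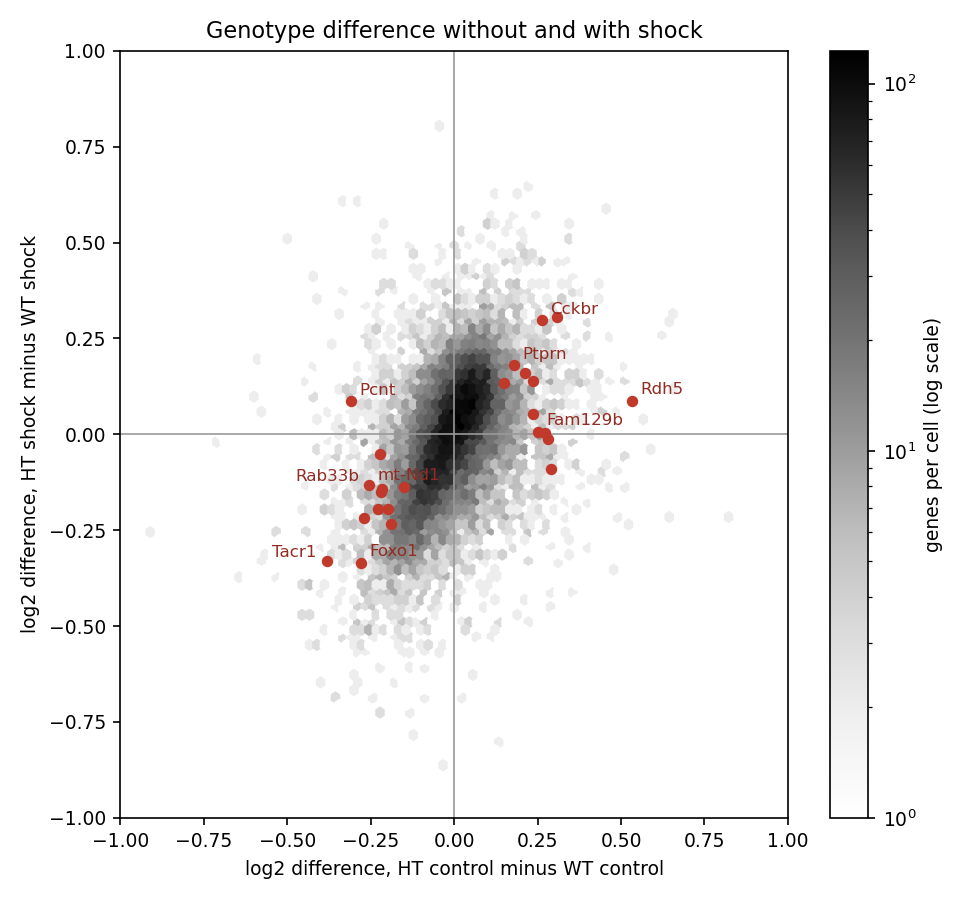
Log2 difference between genotypes for each gene without shock (x axis, HT control minus WT control) and with shock (y axis, HT shock minus WT shock), with darker cells holding more genes on a log colour scale. The 24 red points are the genes with the smallest p without shock, among which Ptprn and Cckbr are positive and Foxo1 and Tacr1 negative on both axes while Pcnt changes sign, and 111 of 17118 genes lie outside the plotted range.

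Among the genes with the smallest p, Ptprn and Fam129b led those with higher values in HT control. Ptprn (ENSMUSG00000026204, GRCm38 chromosome 1, 75247027 to 75264502, minus strand) encodes a transmembrane protein of dense-core vesicles, which store neuropeptides and hormones. It had a lowest value of 17115, a median of 17788 and a highest value of 19659 normalized counts in HT control, against 15184, 15883 and 16351 in WT control. All HT control samples lay above all WT control samples, and replicate 6 was the highest of them. The means were 17972 ± 941 in HT control and 15855 ± 482 in WT control (SD, n = 6 each), a log2 difference of 0.18 ± 0.03 (SE, limma adjusted p = 0.0861). It was 0.15 without HT control replicate 6. In the shocked pair Ptprn had the same difference, 0.18 ± 0.04, and passed there (limma adjusted p = 0.00622).

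Fam129b (ENSMUSG00000026796, chromosome 2, 32876114 to 32925254, plus strand) had 1091, 1148 and 1216 normalized counts as lowest, median and highest values in HT control and 904, 976 and 1068 in WT control. The groups did not overlap, and the difference was 0.25 ± 0.05 (SE, limma adjusted p = 0.0861). After shock its difference was 0.01 ± 0.05, and the interaction of genotype and shock was -0.24 (unadjusted p = 0.00125, limma adjusted p = 0.552), so the contrast between the pairs did not pass.

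Cckbr, a receptor for the peptide cholecystokinin, had values of 1315, 1366 and 1502 in HT control against 988, 1181 and 1245 in WT control. These did not overlap, and the difference was 0.26 ± 0.06 (SE, limma adjusted p = 0.168). It was 0.30 ± 0.06 after shock (limma adjusted p = 0.00917). Slc25a22, a mitochondrial glutamate carrier, likewise had separate groups without shock, with a difference of 0.15 ± 0.03 (limma adjusted p = 0.168), and 0.13 ± 0.04 with shock (limma adjusted p = 0.0246). Mas1, a receptor for an angiotensin peptide, had 0.31 ± 0.08 without shock (limma adjusted p = 0.254) and 0.31 ± 0.08 with shock (limma adjusted p = 0.0229), and its control groups overlapped.

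Several genes of this set had a small p without shock and a value near 0 with it. Orai3, a subunit of store-operated calcium channels, had 0.24 ± 0.05 without shock and 0.05 ± 0.05 with shock. Rdh5, a retinol dehydrogenase, had 0.53 ± 0.13 and 0.09 ± 0.14, Gfod2 0.28 ± 0.06 and -0.01 ± 0.07, Marveld1 0.27 ± 0.06 and 0.00 ± 0.07, and Obsl1, a cytoskeletal adaptor, 0.29 ± 0.07 and -0.09 ± 0.07, each without and with shock. None of their interactions passed, since 0 genes did. Slc7a4, of an amino acid transporter family, and Plch2, a phospholipase C, had 0.24 ± 0.05 and 0.21 ± 0.05 without shock and 0.14 ± 0.06 and 0.16 ± 0.05 with shock (SE). The limma adjusted p without shock lay between 0.168 and 0.24 for these 7 genes.

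**Figure D3:**
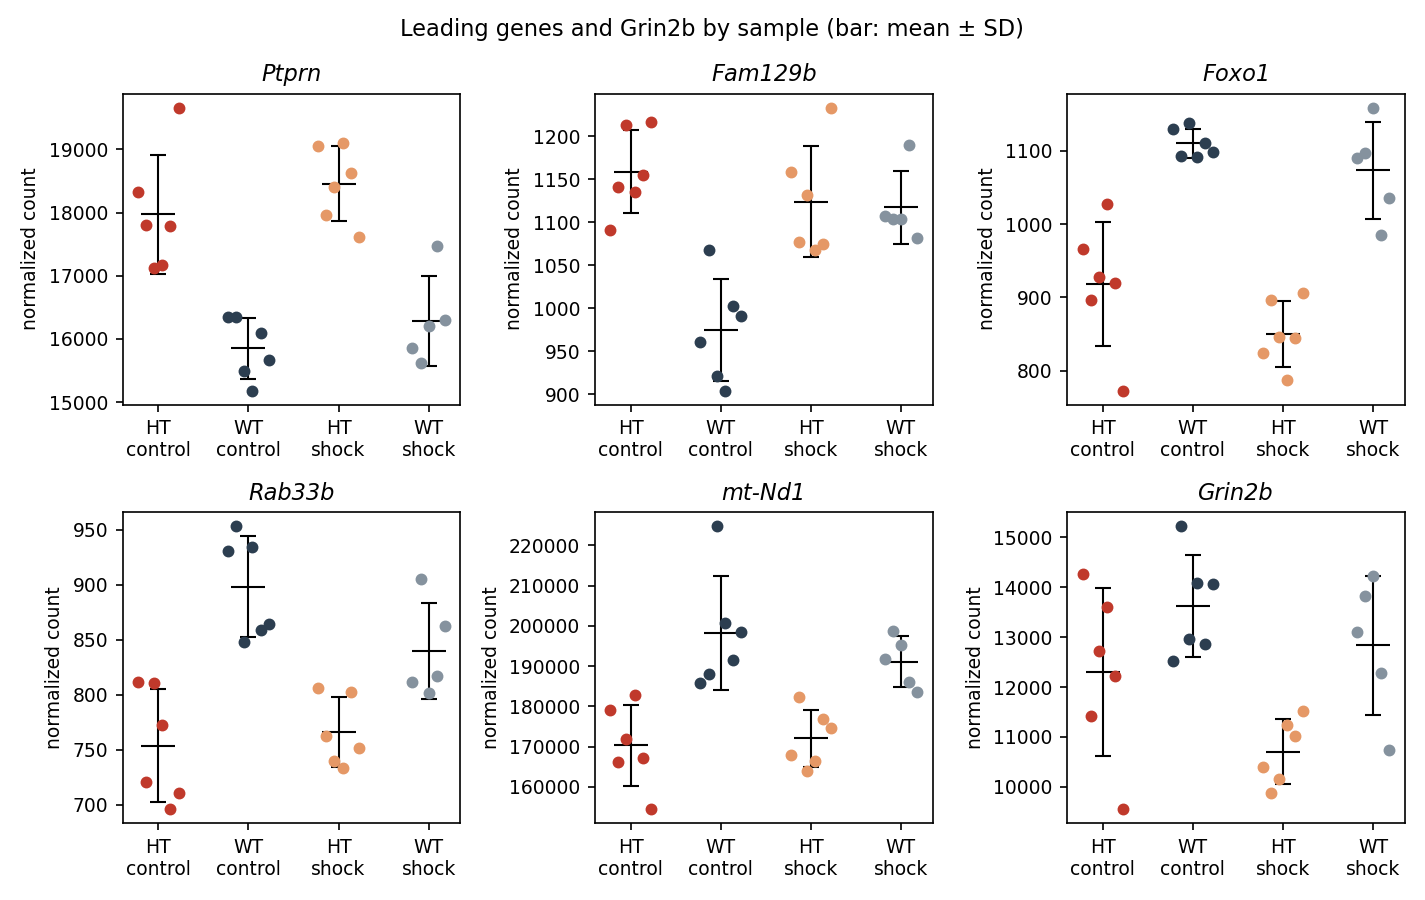
Normalized counts of 6 genes in each sample (points, in replicate order) of HT control, WT control, HT shock and WT shock, with the mean and SD of each group in black and axes that do not start at 0. HT control lies above WT control without overlap for Ptprn and Fam129b and below it for Foxo1, Rab33b and mt-Nd1, whereas the groups overlap for Grin2b.

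Genes with lower values in HT control were led by a transcription factor of insulin signalling, a Golgi GTPase and a mitochondrial gene. Foxo1 (ENSMUSG00000044167, chromosome 3, 52268336 to 52353221, plus strand) encodes a forkhead factor that insulin signalling keeps out of the nucleus. Its values were 773, 924 and 1027 normalized counts (lowest, median, highest) in HT control and 1092, 1104 and 1138 in WT control. WT control samples lay close together, HT control samples were spread below them, and replicate 6 was the lowest. The means were 918 ± 84.8 in HT control and 1111 ± 19.7 in WT control (SD, n = 6 each), a log2 difference of -0.28 ± 0.05 (SE, limma adjusted p = 0.0861). It was -0.23 without HT control replicate 6 and -0.33 ± 0.06 in the shocked pair, where Foxo1 fell (limma adjusted p = 0.00345).

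Rab33b (ENSMUSG00000027739, chromosome 3, 51483920 to 51496232, plus strand), a small GTPase of the Golgi, had 696, 747 and 811 in HT control against 848, 898 and 953 in WT control. The groups did not overlap, with a difference of -0.25 ± 0.05 (SE, limma adjusted p = 0.0861), and it was -0.13 ± 0.05 after shock (limma adjusted p = 0.0997). Tacr1, the receptor for substance P, had 187, 227 and 239 in HT control against 255, 283 and 330 in WT control. All HT control samples were below all WT control samples, and the difference was -0.38 ± 0.09 without shock (limma adjusted p = 0.168) and -0.33 ± 0.09 with shock (limma adjusted p = 0.027). Camk1d, a calcium and calmodulin-dependent kinase, had -0.23 ± 0.05 and -0.20 ± 0.05, Ppp1r16b, a protein phosphatase regulatory subunit, -0.19 ± 0.04 and -0.23 ± 0.04, Trp53bp2, a p53-binding protein, -0.22 ± 0.05 and -0.14 ± 0.05, and Erlin2, a protein of the endoplasmic reticulum, -0.27 ± 0.06 and -0.22 ± 0.06, each without and with shock (SE). Of these 4, only Trp53bp2 did not pass with shock (limma adjusted p = 0.0657), and none passed without it (0.168 each).

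Pcnt, the centrosome protein pericentrin, ran the other way in the shocked pair. It had 1107, 1206 and 1323 normalized counts in HT control against 1383, 1468 and 1746 in WT control, with no overlap, and a difference of -0.31 ± 0.06 (SE, limma adjusted p = 0.105). After shock the difference was 0.09 ± 0.07. The interaction was 0.40 ± 0.09 (unadjusted p = 0.000167, limma adjusted p = 0.552), which did not pass.

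Of the 72 genes whose control groups did not overlap, 28 of the 32 higher and 37 of the 40 lower had the same sign after shock (69.2% of all genes). Those with no overlap in the shocked pair either were 5 higher genes, Angptl6, Cckbr, Ptprn, Rtn4r and Slc25a22, and 11 lower genes, Camk1d, Foxo1, Kcnab1, Ppp1r16b, Ramac, Rasd2, Scn4b, Trp53bp2, mt-Cytb, mt-Nd1 and mt-Nd4. Rtn4r, the Nogo receptor that restrains axon growth, had 0.23 ± 0.06 without shock and 0.29 ± 0.06 with shock, and Kcnab1, a potassium channel subunit, -0.17 ± 0.05 and -0.23 ± 0.05 (SE). These 16 genes were singled out by a rule that uses both pairs, so their shared direction is a description. The share of all genes without overlap in the shocked pair was not counted, so the counts of 5 and 11 stand without a background.

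Grin2b itself (ENSMUSG00000030209, chromosome 6, 135713233 to 136173511, minus strand) was expressed in every sample. Its lowest, median and highest values were 9556, 12471 and 14275 normalized counts in HT control and 12521, 13514 and 15225 in WT control. The groups overlapped, and HT control replicate 6 was the lowest of the 12. The means were 12301 ± 1678 in HT control and 13621 ± 1019 in WT control (SD, n = 6 each), a log2 difference of -0.16 ± 0.08 (SE, limma adjusted p = 0.465). It was -0.09 without HT control replicate 6 and -0.05 after the length and GC correction. In the shocked pair it was -0.26 ± 0.08 (SE, limma adjusted p = 0.0507, and 0.012 when HT control replicate 6 is left out of the fit). The shocked difference was -0.08 after the length and GC correction (limma adjusted p = 0.292). A change of 1 amino acid need not alter the level of the mRNA, and the genotype labels could not be checked in this way.

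Of 21 genes of ionotropic glutamate receptors and their auxiliary subunits, 3 had higher and 2 lower values at an unadjusted p under 0.05 (background 4.96% and 6.11%), and the median difference was -0.06 against -0.001 over all genes. There was 1 in each direction without HT control replicate 6, and the median was -0.04. After the length and GC correction there were 0 higher and 1 lower, and the median was -0.03. The obligatory NMDA receptor subunit Grin1 had 0.06 ± 0.04 (SE), Grin2a, the subunit that gains on GluN2B as the forebrain matures, -0.13 ± 0.06, Grin2c, abundant in the cerebellum, 0.12 ± 0.05, and Grin2d -0.02 ± 0.06. Grin3a, a subunit that lowers calcium permeability, had 1224, 1424 and 1517 normalized counts in HT control against 1423, 1537 and 1671 in WT control. These overlapped, with a difference of -0.15 ± 0.05 (SE, limma adjusted p = 0.364). The AMPA receptor subunits Gria1 and Gria2 had -0.05 ± 0.03 and -0.16 ± 0.09 (-0.06 for Gria2 without HT control replicate 6), and Cacng8, an AMPA receptor auxiliary subunit, 0.13 ± 0.05. In the postsynaptic density list 1 of 33 genes had higher and 3 lower values at an unadjusted p under 0.05, with a median of -0.03, which is near the background of 4.96% and 6.11%, and without HT control replicate 6 there were 1 and 0.

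Genes of the mitochondrial genome, which encodes 13 subunits of oxidative phosphorylation complexes and the 2 mitochondrial ribosomal RNAs, had lower values in HT control without exception. All 15 log2 differences were negative, with a median of -0.20 against -0.001 over all genes, and 9 of 15 had an unadjusted p under 0.05 (background 6.11%). In 4 of the 15 the groups did not overlap (background 0.234%). Together the 15 genes made up 4.93%, 5.59% and 5.96% of a sample's normalized counts (lowest, median, highest) in HT control and 5.87%, 6.22% and 6.67% in WT control, and these shares overlapped. Since all of these RNAs are cut from long shared transcripts, the 15 genes are not independent measurements.

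Among complex I subunits, mt-Nd1 (ENSMUSG00000064341, mitochondrial genome, 2751 to 3707, plus strand) had 154492, 169559 and 182862 normalized counts in HT control against 185777, 194880 and 224751 in WT control. No HT control sample reached the lowest WT control sample, and the difference was -0.22 ± 0.04 (SE, limma adjusted p = 0.0861). It was -0.19 without HT control replicate 6 and -0.15 ± 0.04 after shock (limma adjusted p = 0.0317). The complex I subunits mt-Nd4 and mt-Nd5 had -0.20 ± 0.04 and -0.29 ± 0.08 without shock and -0.20 ± 0.05 and -0.37 ± 0.08 with shock (SE). The groups of mt-Nd4 did not overlap, and those of mt-Nd5 did, since HT control replicates 1 and 4 exceeded the lowest WT control sample.

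In other complexes mt-Cytb, of complex III, had -0.15 ± 0.04 without shock and -0.14 ± 0.04 with shock, and mt-Co1, of cytochrome oxidase, -0.17 ± 0.05 and -0.22 ± 0.05. The ATP synthase subunit mt-Atp8 had -0.22 ± 0.05 without shock and -0.05 ± 0.05 with shock, and after the length and GC correction it was -0.05 without shock. Its reading frame overlaps that of mt-Atp6, as mt-Nd4l overlaps mt-Nd4, so reads of these pairs may have been divided between them, and nuclear copies of mitochondrial sequence may share reads too. The ATP synthase subunit mt-Atp6 had -0.37 ± 0.14 without shock and 0.36 ± 0.15 with shock, mt-Co2 -0.15 ± 0.27 and -0.71 ± 0.28, and mt-Co3 -0.19 ± 0.33 and 0.43 ± 0.34. The ribosomal RNAs mt-Rnr1 and mt-Rnr2 had -0.09 ± 0.05 and -0.11 ± 0.05 without shock. In the shocked pair 11 of the 15 were negative and 6 fell at an adjusted p under 0.05 (limma, background 5.33%). The median without HT control replicate 6 was -0.18 and after the length and GC correction -0.14, with 15 of 15 negative in both.

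Nuclear genes of the same respiratory complexes did not have lower values. Of 75 such genes 67 were positive, with a median of 0.05, 3 with higher and 0 with lower values at an unadjusted p under 0.05 (background 4.96% and 6.11%). Without HT control replicate 6 that median was 0.01, and after the length and GC correction it was 0.03, with 50 of 75 positive. A list of 33 genes held those that replicate or transcribe the mitochondrial genome or process its RNA, and nuclear regulators of mitochondrial genes. Of these, 2 had higher and 1 had lower values at an unadjusted p under 0.05. The median of the list was -0.002 and was positive under 11 of 23 alternatives. The 76 cytosolic ribosomal protein genes had a median of 0.05, and 0.0001 without HT control replicate 6, which had the highest score for this list, 0.259, against -0.112 to 0.125 in the other HT control samples. After the length and GC correction the median of these genes was 0.01. A score here is the mean over a list of the log2 deviations of a sample from the mean of the 12 controls.

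**Figure D4:**
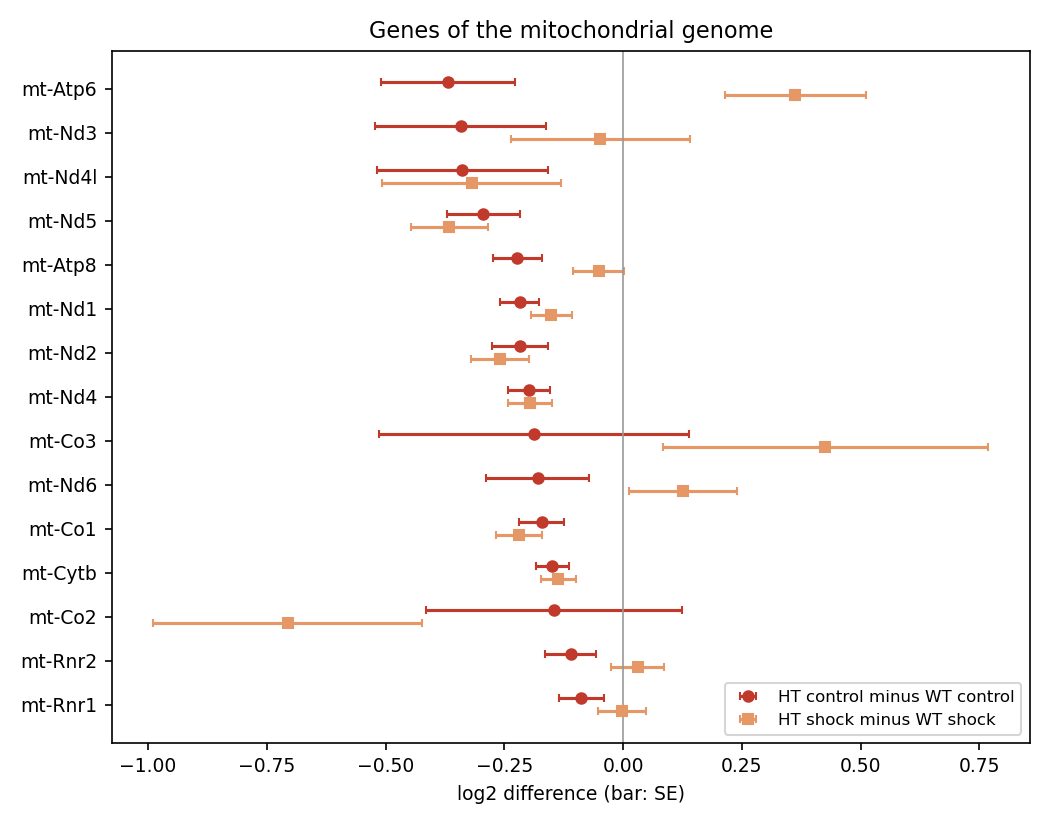
Log2 difference and SE for the 15 genes of the mitochondrial genome without shock (circles, HT control minus WT control) and with shock (squares, HT shock minus WT shock). All 15 circles lie below 0, and 4 of the squares, those of mt-Atp6, mt-Co3, mt-Nd6 and mt-Rnr2, lie above 0.

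Genes of striatal projection neurons, the inhibitory output cells of the striatum, also had lower values. Of 20 genes 18 were negative, with a median of -0.25, and 15 had an unadjusted p under 0.05, all lower (background 6.11%). The 20 genes summed to 0.161%, 0.18% and 0.196% of normalized counts in HT control and 0.193%, 0.204% and 0.212% in WT control (lowest, median, highest), and these overlapped. Since these are bulk samples, fewer cells of a type and less RNA per cell cannot be told apart, and neither can a different share of the striatum in the tissue taken.

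Among receptors, the D1 dopamine receptor gene Drd1 had 587, 735 and 906 normalized counts in HT control against 825, 909 and 997 in WT control. Of the HT control samples, replicate 4 alone lay within the WT control range, and the difference was -0.31 ± 0.11 (SE, limma adjusted p = 0.364). The D2 receptor gene Drd2 had -0.26 ± 0.09 and the adenosine receptor gene Adora2a -0.25 ± 0.12 without shock, and -0.56 ± 0.10 and -0.69 ± 0.12 with shock. In signalling, Rasd2, a striatal GTP-binding protein, had 3285, 3393 and 3495 in HT control against 3597, 3859 and 4006 in WT control. These did not overlap, and the difference was -0.18 ± 0.05 (SE, limma adjusted p = 0.291) without shock and -0.31 ± 0.05 with shock (limma adjusted p = 0.00337). Ppp1r1b, which encodes the dopamine-regulated phosphatase inhibitor DARPP-32, had -0.15 ± 0.07, and Rarb, a retinoic acid receptor, -0.33 ± 0.10.

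Scn4b, a sodium channel subunit counted in both the striatal and the voltage-gated channel lists, had 5719, 7454 and 8126 normalized counts in HT control against 8300, 8736 and 9763 in WT control. The groups did not overlap, and the difference was -0.29 ± 0.09 (SE, limma adjusted p = 0.34) and -0.54 ± 0.09 after shock (limma adjusted p = 0.0037). The striatal median was -0.22 without HT control replicate 6 and -0.28 after the length and GC correction. In the shocked pair it was -0.31, with 11 of 20 genes lower and 0 higher at an adjusted p under 0.05 (background 5.33% and 3.95%). After the length and GC correction the shocked median was also -0.31. HT control replicate 4, with a striatal score of 0.083, was the one HT control sample within the WT control range of 0.025 to 0.171.

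Other neuronal regions gave smaller medians. Of 16 thalamic genes 4 had lower and 0 higher values at an unadjusted p under 0.05 (background 6.11% and 4.96%), with a median of -0.07. HT control replicate 6 had the lowest thalamic score, and with it left out 1 gene had lower values and the median was -0.04. Tcf7l2, a transcription factor of thalamic neurons, had -0.28 ± 0.09 without shock and -0.35 ± 0.09 with shock. Cortical glutamatergic genes had a median of -0.004 with 10 of 19 negative, and 4 had higher and 1 lower values at that p. Slc17a7, the vesicular glutamate transporter of cortical neurons, had 0.13 ± 0.04 (SE, limma adjusted p = 0.357). Hippocampal genes had a median of -0.001 (0 higher and 3 lower of 16) and interneuron genes -0.04 (3 higher and 4 lower of 24). Without HT control replicate 6 the higher and lower counts were 1 and 0 (cortical), 0 and 4 (hippocampal) and 1 and 3 (interneuron). Cerebellar genes had a median of 0.03 (2 higher and 0 lower of 18) and midbrain dopamine genes -0.09 (0 higher and 1 lower, 13 of 15 tested). Of 16 hypothalamic genes tested out of 18, 2 had higher values at an unadjusted p under 0.05 (background 4.96%), Npy (0.22 ± 0.07) and Oxt (0.27 ± 0.11), both neuropeptides, and the median was 0.15.

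Voltage-gated channel genes had lower values in 34 of 42 cases, with a median of -0.09, and 15 lower against 2 higher at an unadjusted p under 0.05 (background 6.11% and 4.96%). Kcnq3 (ENSMUSG00000056258, chromosome 15, 65986387 to 66286642, minus strand), a subunit of the M-type potassium channel that damps repetitive firing, had 3916, 5576 and 6124 normalized counts in HT control against 5884, 6771 and 7459 in WT control. HT control replicates 1 and 4 lay within the WT control range and replicate 6 far below it. The difference was -0.33 ± 0.08 (SE, limma adjusted p = 0.221), -0.24 without HT control replicate 6 and -0.32 ± 0.08 with shock (limma adjusted p = 0.023). The sodium channel gene Scn3a had -0.34 ± 0.10 without shock and -0.34 ± 0.10 with shock, and the potassium channel gene Kcna4 -0.23 ± 0.07 and -0.07 ± 0.07. The median of the list was -0.05 without HT control replicate 6, whose score was -0.234 against -0.088 to 0.046 in the other HT control samples. After the length and GC correction the median was -0.06, with 14 lower and 2 higher genes at an unadjusted p under 0.05. The median in the shocked pair was -0.12, and -0.03 after that correction. Kcnq3 then had -0.17 with shock and Scn3a -0.19 (limma adjusted p = 0.0125 and 0.0694).

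Of 23 genes of the GABA synapse, 7 had lower and 1 higher values at an unadjusted p under 0.05 (background 6.11% and 4.96%), with a median of -0.09. Gad1, which makes GABA, had -0.11 ± 0.03 (SE, limma adjusted p = 0.34) and the GABA-A receptor gene Gabrg3 -0.19 ± 0.06. The higher one was Gabrd, a subunit of extrasynaptic GABA-A receptors, with 0.16 ± 0.06. Of 50 autism-linked genes, a list that holds Grin2b itself, 45 were negative with a median of -0.08, 9 lower and 0 higher at an unadjusted p under 0.05 (background 6.11% and 4.96%), led by the neuronal transcription factor Myt1l (-0.20 ± 0.06). When HT control replicate 6 was left out, 3 autism-linked genes had lower values and the median was -0.04, and for the GABA synapse 5 had lower and 1 higher values with a median of -0.05. After the length and GC correction the medians were -0.04 (autism-linked) and -0.05 (GABA synapse). Each list then had 7 lower genes at an unadjusted p under 0.05, with 0 and 1 higher. In the shocked pair the medians were -0.11 and -0.10, and -0.02 and -0.01 after that correction.

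Among genes of dense-core vesicles and peptide secretion, 3 of 26 had higher values at an unadjusted p under 0.05 (background 4.96%), the vesicle protein Ptprn and the secretory granule proteins Vgf and Chgb, and 2 had lower values (background 6.11%). These counts were 4 and 0 without HT control replicate 6. The list holds the leading gene Ptprn and was chosen with earlier results of these data known, so the counts only describe it. Vgf, the precursor of several neuropeptides, had 6096, 6967 and 7561 normalized counts in HT control against 5684, 5951 and 6280 in WT control. Only HT control replicate 3 lay within the WT control range, and the difference was 0.21 ± 0.05 (SE, limma adjusted p = 0.29) and 0.30 ± 0.06 with shock (limma adjusted p = 0.00466). Chgb had 0.10 ± 0.04 and 0.19 ± 0.04 without and with shock. The median of the list was 0.01, so the list as a whole did not share their direction.

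Immediate early genes, which neurons transcribe within minutes of activity, had a median of -0.002 that changed sign under 8 of 23 alternatives, with 2 of 35 higher and 0 lower at an unadjusted p under 0.05 (background 4.96% and 6.11%), and 4 and 0 without HT control replicate 6. Nptx2, an activity-induced synaptic pentraxin, had 0.23 ± 0.06 without shock (SE, limma adjusted p = 0.29) and 0.26 ± 0.06 with shock, and Ier5 0.22 ± 0.09 and 0.45 ± 0.09. Scores of this list varied widely within each group, from -0.208 to 0.329 in HT control and from -0.461 to 0.452 in WT control. In the shocked pair the median was 0.26.

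In FoxO and insulin signalling 9 of 35 genes had lower and 3 higher values at an unadjusted p under 0.05 (background 6.11% and 4.96%), with a median of -0.07. These counts were 4 and 2 without HT control replicate 6, and the median was -0.02. After the length and GC correction they were 7 and 1, and the median was -0.04. The list holds Foxo1 and was chosen with earlier results of these data known, so its counts are a description. Beside Foxo1, Sgk3, a kinase downstream of phosphoinositide signalling, had -0.21 ± 0.07 (SE). The growth factor gene Igf2, also a marker in the mural and fibroblast list, had 0.36 ± 0.10 without shock and 0.01 ± 0.11 with shock. Of 30 glucocorticoid-induced genes 29 were negative, with a median of -0.16 and 5 lower against 0 higher at an unadjusted p under 0.05 (background 6.11% and 4.96%). Hif3a had 211, 249 and 393 normalized counts in HT control against 271, 380 and 483 in WT control. HT control replicates 2 and 3 lay within the WT control range, and the difference was -0.52 ± 0.16 (SE, limma adjusted p = 0.34). The transcription factor Klf9 had -0.18 ± 0.06. The glucocorticoid scores ran from -0.242 to 0.136 in HT control and from -0.132 to 0.513 in WT control, with WT control replicate 6 the highest, and the median without any 1 of the 12 samples ranged between -0.17 and -0.10.

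Markers of cells at the brain's fluid and vessel borders had higher values in HT control. Choroid plexus and ependyma, which make and move cerebrospinal fluid, were represented by 20 genes that were all positive, with a median of 0.26, and 8 had higher and 0 lower values at an unadjusted p under 0.05 (background 4.96%). Kcne2, a potassium channel subunit of the choroid plexus, had 56.2, 67.2 and 110.9 normalized counts in HT control against 20.2, 39.0 and 64.5 in WT control. HT control replicates 1 and 3 lay below the highest WT control sample, and the difference was 0.92 ± 0.25 (SE, limma adjusted p = 0.29). Ccdc153, a gene of ciliated cells, had 67.9, 74.1 and 104.0 against 43.3, 62.2 and 65.6, with no overlap, and a difference of 0.42 ± 0.12. The transporter gene Slc4a5 had 0.84 ± 0.28 and Ttr, which encodes the carrier transthyretin, 0.52 ± 0.20. With shock the same 4 genes had 0.04, 0.06, 0.18 and 0.18, and the list had a median of 0.09.

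Summed over the 20 markers, the choroid plexus and ependyma genes made up 0.04%, 0.0485% and 0.0764% of normalized counts in HT control and 0.0238%, 0.0382% and 0.0497% in WT control (lowest, median, highest), and 0 of them were listed at 0 in a control sample. HT control replicate 6 had the highest score, 0.405, and HT control replicate 3 the lowest of its group, -0.108, while WT control replicate 4 at 0.177 exceeded 4 of the 6 HT control samples. Without HT control replicate 6 the median was 0.17 and 4 genes had an unadjusted p under 0.05. After the length and GC correction it was 0.25.

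Mural cells and fibroblasts of the vessel wall and meninges had 20 of 20 markers positive, with a median of 0.17 and 5 higher against 0 lower at an unadjusted p under 0.05 (background 4.96% and 6.11%). With HT control replicate 6 left out, 3 had higher values and the median was 0.14. Acta2, the smooth muscle actin, had 0.35 ± 0.14 (SE) and the collagen gene Col1a1 0.26 ± 0.13 without shock, and -0.03 ± 0.15 and -0.02 ± 0.13 with shock. Their sum was 0.107%, 0.111% and 0.132% of normalized counts in HT control and 0.0927%, 0.103% and 0.11% in WT control. Of 20 endothelial markers 7 had higher and 0 lower values at an unadjusted p under 0.05 (background 4.96% and 6.11%; 6 and 0 without HT control replicate 6), with a median of 0.10 that was -0.17 in the shocked pair. Cldn5, a tight junction protein of brain endothelium, had 599, 708 and 835 in HT control against 447, 534 and 706 in WT control. The groups overlapped, and the difference was 0.35 ± 0.12 (SE, limma adjusted p = 0.355). The sum of endothelial markers was 0.0397%, 0.0426% and 0.0445% in HT control and 0.0371%, 0.0386% and 0.0447% in WT control. None of the vascular markers was listed at 0 in a control sample. Whether the vascular and ventricular lists differed between the pairs was not tested as a list.

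Microglia, the resident immune cells, had 21 of 22 markers positive with a median of 0.23, but 2 higher at an unadjusted p under 0.05 (background 4.96%), Aif1 (0.47 ± 0.18, SE) and Fcrls (0.41 ± 0.19). The defining markers Cx3cr1 and P2ry12 had 0.34 ± 0.23 and 0.22 ± 0.20. The scores spread from -0.114 to 0.524 in HT control, with replicate 6 the highest, and from -0.359 to 0.23 in WT control, and without HT control replicate 6 the median was 0.14 with 1 marker at an unadjusted p under 0.05. Oligodendrocyte genes had a median of -0.07 with the myelin gene Mbp at -0.10 ± 0.06, oligodendrocyte precursors -0.01 and astrocytes -0.01, with the glutamate transporter gene Slc1a2 at -0.11 ± 0.06. Blood genes, with 9 of 13 tested, had a median of 0.08 with 0 at an unadjusted p under 0.05 in either direction, and 14 nuclear-retained RNAs had -0.004. The part of differing shares of cell types or regions in the differences of single genes was not tested.

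**Figure D5:**
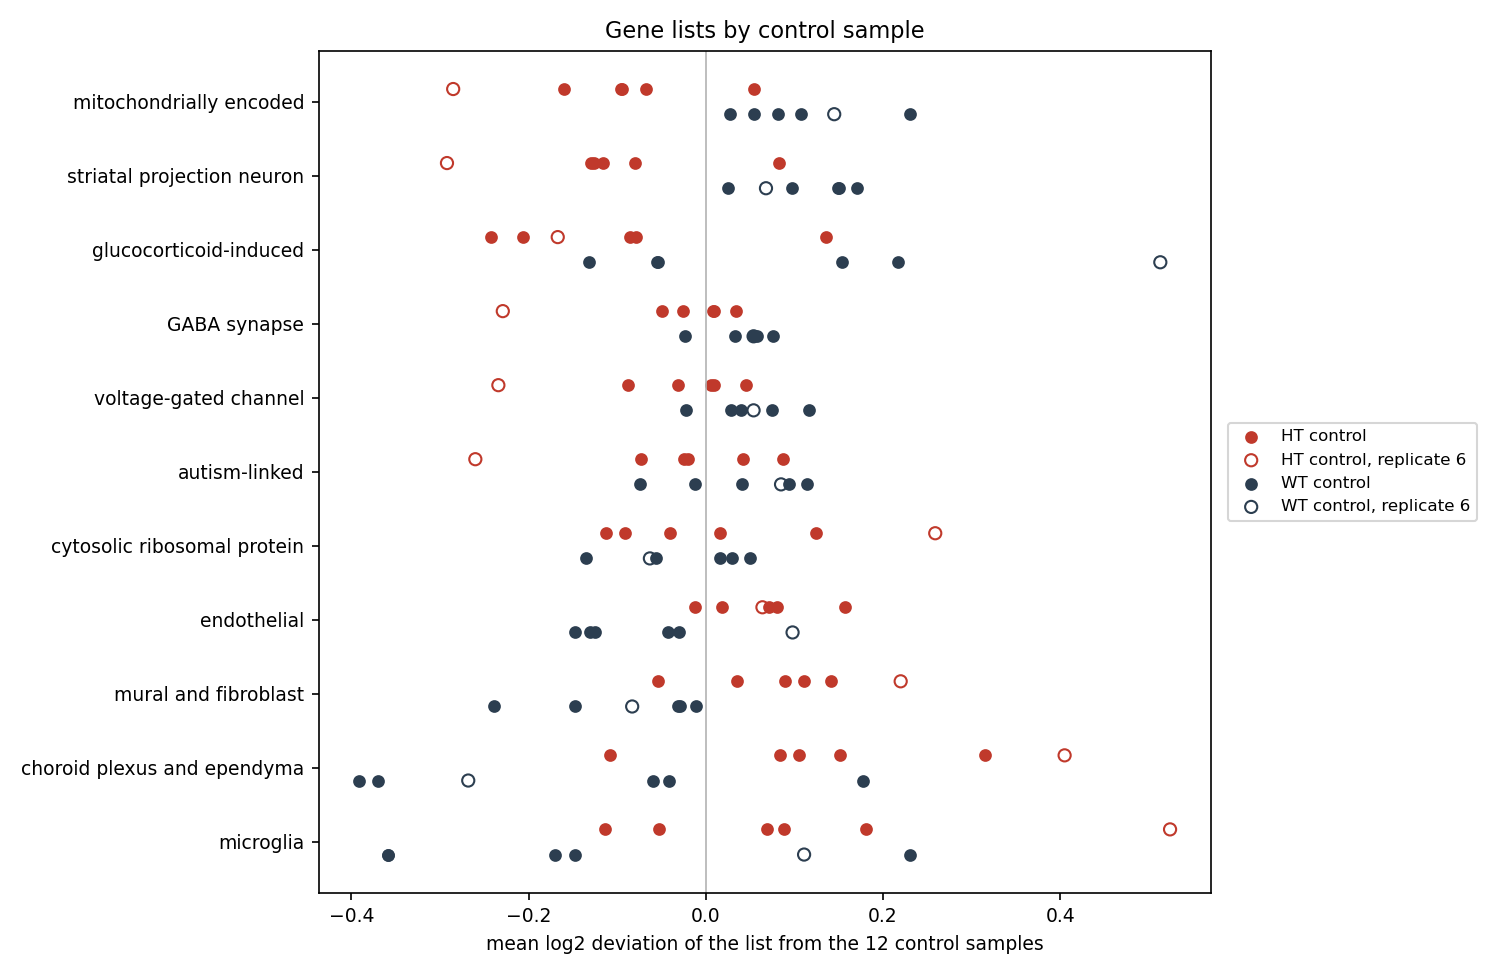
Mean log2 deviation of 11 gene lists from the mean of the 12 control samples, 1 point per sample, with HT control in red above WT control in dark blue and replicate 6 of each group drawn open. Mitochondrially encoded and striatal genes lie lower in HT control with 1 sample within the WT control range, the border and vessel lists lie higher with overlap, and the open red point is an end of the HT control range in 9 of the 11 lists.

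Corrected for transcript length and GC content, 6 genes passed an adjusted p under 0.05 in HT control against WT control. Kcnq3 fell by 0.25 ± 0.04 (SE, limma adjusted p = 0.00782). Camk1d fell by 0.18, Ppp1r16b by 0.18, Foxo1 by 0.24 and the neuronal calcium sensor gene Hpca by 0.16, and Ptprn rose by 0.13 (limma adjusted p = 0.0462 each). Without HT control replicate 4 and with no correction, Foxo1 (-0.31 ± 0.05) and mt-Nd1 (-0.24 ± 0.04) passed (limma adjusted p = 0.0496 each).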

How the data were processed

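Brain mRNA was sequenced from libraries made with a stranded kit, per the labels' protocols. The values deposited by the authors are a signal for each gene and sample, namely normalized counts with decimals. The submitters' processing notes name the build GRCm38, DESeq2 1.26.0, Salmon 1.1.0 and R 3.6.2 without their roles. Whole reads could not be recovered, since 22.0% to 43.7% of low values lay within 0.1 of a whole multiple, so no count model was fitted. Of 24 value columns 1 matched no sample and was not used. Symbols were matched for 18563 of 18578 Ensembl IDs, with positions from GENCODE on GRCm38. The 4 groups entered one limma fit (limma 3.58.1, statmod 1.5.0, R 4.3.3; trend and robust moderation, 19 residual degrees of freedom) on log2(normalized count + 1), which understates changes of low genes, for genes with a mean of at least 10. The model was tested on simulated data. The members and the 30 gene lists, 803 of 811 entries tested, were chosen with earlier results of these data known. Counts of list members beside the background are therefore descriptions. Named are Grin2b, genes with adjusted p under 0.1, the 12 smallest p in each direction (mean 20 or more, no predicted or clone names), and, from the lists described, up to 3 members with the smallest p and defining markers; genes outside this rule (Rtn4r, Kcnab1, Angptl6, Ramac, Hpca) were named after their values were seen. Alternatives covered scaling, filter, pseudocount, samples in the fit, replicate block, weights, moderation, threshold, single samples and the length and GC correction. Some items are not reported here. Plots used matplotlib 3.10.9 and Python 3.11.15.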

Additional observations from a re-analysis of the deposited data

Results flagged for a closer look

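Within groups of 6 samples, a sample was picked out where its gap to the nearest other sample, as a share of the range of the group, exceeded Dixon's critical value. Of 242 groups of values tested 17 had such a sample, and chance alone gives about 1 in 20. HT control replicate 6 was the sample in 10 of the 17. It was the lowest of its group for mt-Nd2 (101845 normalized counts), Klf9 (5669) and Myt1l (5235), and the highest for Ndufa10 (4844), Cacng8 (1511), Grin2c (4467) and Fcrls (358.5). Its list score was the lowest for the GABA synapse (-0.229) and thalamic genes (-0.261) and the highest for hypothalamic genes (0.203). Among HT control samples, replicate 1 was far above the others for mt-Co2 (101563).

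In WT control, replicate 3 was far above the others for mt-Cytb (274688), and replicate 6 for mt-Rnr1 (76105) and mt-Rnr2 (109749). WT control replicate 1 was far below the others for mt-Co3 (34763), and replicate 4 for Ndufc1 (609.3) and Gabrd (2079).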

How the results depend on the processing

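The depth is unknown, so counting error could not be given, and the DESeq2 alternative was not run because the table holds no counts. Between HT control and WT control 0 genes passed under 10 of the 12 alternatives that keep all 12 control samples, some of which leave the shock samples out of the fit. There were 849 higher and 1046 lower genes at an unadjusted p under 0.05 with all samples. In the other alternatives 5 passed at an adjusted p under 0.1 and 6 after the length and GC correction, and 0 to 2 with each of the 12 control samples left out in turn (the only samples left out singly, here and below). Genes at an unadjusted p under 0.05 numbered 517 to 1145 (higher) and 538 to 1454 (lower) with each sample left out, the lowest without HT control replicate 6. Groups without overlap gave 39 to 77 genes (higher) and 48 to 110 (lower) with each sample left out, where smaller groups separate more easily. Calls in HT shock against WT shock were 3775 with sample weights, 1020 after the length and GC correction and 1410 to 2923 with each control sample left out. The interaction gave 2 calls with weights, 1 after that correction and 0 to 1 with each control sample left out. Centring each sample on its median gave 993 higher and 895 lower genes at an unadjusted p under 0.05. Grin2d, at -0.02, lay between -0.0416 and 0.0233 with each sample left out, and was positive with HT control replicate 4 (0.0233) or WT control replicate 2 (0.00522) removed. Of 690 list medians under alternatives, 689 moved by less than the spread between replicates, and the median of nuclear-retained RNAs was 0.08 after the length and GC correction. The causes were not tested.

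Replicate numbers did not pair the samples in general. Deviations of same-numbered HT control and WT control samples correlated between -0.0671 and 0.137, and 2 of 6 HT control samples matched their own number best. The highest correlation was that of replicate 1. On the second principal component of the 12 controls (12.3% of the variance) replicate 1 lay at -32.8 in HT control and -24.7 in WT control. The other controls lay between -2.77 and 16.4, and the cause was not tested. With the number as a replicate block, 0 genes passed, with 810 higher and 967 lower at an unadjusted p under 0.05 in all groups and 612 and 655 in the 12 controls alone, and 450 passed in HT shock against WT shock. The block used the numbers of the titles, and for WT shock replicates 2 to 5 these differ from the bracketed library names, which run 3 to 6.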
